A study of Homo sapiens with 48 samples.

Results

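The cytosolic heat shock genes examined here are HSF1, HSPA1A, HSPA1B, HSPA8, HSPH1, DNAJB1, HSP90AA1 and BAG3, together with the mitochondrial pair HSPD1 and HSPE1. They were chosen by symbol, and all 10 were found among the 58302 genes of the count table. The cells were AMO1, an established human multiple myeloma line labelled as tumor plasma cells from a plasmacytoma. The clones carried shRNAs under a doxycycline (Dox)-inducible promoter: shIRE1 clones 1 and 3 (IRE1 sh7,8,9), which target ERN1, the gene of IRE1, and shXBP1 clones 1 and 18 (XBP1 sh4,6,7), which target XBP1. Each clone was grown as 3 replicate flasks and received 0.2 µg/ml Dox for 0, 24, 48 or 72 h, which gave 16 groups and 48 libraries. Every 0 h group carried the same shRNAs without Dox. Cells with a control shRNA that has no target are not part of the data used, so an effect of Dox or of expressing any shRNA cannot be told apart from that of the silenced gene, and each line stands for 1 clone.

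HSF1 is the transcription factor that drives the heat shock response. In unstressed cells it is held inactive by chaperones, and when unfolded protein draws these away, it trimerizes, binds heat shock elements in DNA and induces HSP70, HSP90, HSP40 and HSP110 genes. The endoplasmic reticulum (ER) has its own response to unfolded protein, in which IRE1 splices XBP1 mRNA so that it encodes the factor XBP1s, which induces ER chaperones. Myeloma cells secrete immunoglobulin and rely on both systems.

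Total counts per library ran from 19177855 to 40767202. Levels are given as CPM, a gene's counts relative to the library total, after TMM scaling. ERN1 averaged 152 CPM at 0 h and between 96.4 and 127 CPM after Dox in shIRE1 clone 1, and 438 CPM against 121 to 145 CPM in shIRE1 clone 3. XBP1 fell from group means of 167 and 170 CPM at 0 h in shXBP1 clones 1 and 18 to between 34.0 and 62.6 CPM after Dox. All 9 plasma cell markers were read at 31.7 CPM or more in each library, although at 48 h 7 and 9 of them were lower than at 0 h and 1 and 0 higher in shIRE1 clones 1 and 3. In shXBP1 clones 1 and 18, 4 and 3 were lower and 4 and 1 higher, and the 9 include XBP1, which these clones silence. Over all genes tested, 65.4% and 63.2% differed at 48 h in shIRE1 clones 1 and 3, and 32.0% and 5.78% in shXBP1 clones 1 and 18. Of 10 markers of other blood cells and stroma, 9 stayed at or under 2.29 CPM in all libraries, with CD3D at 0.0392 CPM or less, whereas CD3E reached 17.3 CPM. The sum of these 10 markers moved with Dox in the shIRE1 clones, from 7.10 to 9.11 CPM in the 0 h libraries to 15.8 to 20.3 CPM in the later ones, while in the shXBP1 clones it lay between 6.63 and 16.8 CPM. The part of either marker list in the results was not tested. The library labelled shXBP1 clone 18, 72 h, replicate 3 lay nearer shXBP1 clone 1 at 79 of 79 marker genes that separated these clones at the other times. Values without it are given where a call changes, and for HSPH1 in that clone. Replicate 1 of shIRE1 clone 3 at 24 h lay nearer shIRE1 clone 1 at 8 of 13 such genes, so its identity was not clear-cut, and values without it are given where they change a call.

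Per kilobase of the canonical transcript, HSPA8 was the most abundant of these genes, with group means between 681 and 960 CPM per kb. HSP90AA1 followed at 96.4 to 528, HSPD1 at 83.7 to 171, HSPE1 at 31.7 to 98.1 and HSPH1 at 29.7 to 85.5 CPM per kb. DNAJB1 lay between 31.5 and 55.1, BAG3 between 18.4 and 42.5 and HSF1 between 16.5 and 31.9 CPM per kb. HSPA1B stood at 2.14 to 8.07 CPM per kb and HSPA1A at 0.106 CPM per kb or less. The ranges of HSPA8, of HSPA1B and of HSPA1A overlapped with no neighbor in this order, and those of every other neighboring pair did. Not all of these levels could be assigned with equal certainty. HSPA1A and HSPA1B are near-identical copies, and 75.1% of the 50-base words of the HSPA1A transcript also occur in transcripts of other genes, as do 73.6% for HSPA1B. The share was 48.2% for HSPE1, 27.1% for HSPD1, 19.1% for HSP90AA1 and 16.8% for HSPA8, shared with pseudogenes and, for HSPE1, also with the readthrough gene HSPE1-MOB4, and 4.2% or less for HSF1, DNAJB1, HSPH1 and BAG3.

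Heat shock elements are the DNA sequences that HSF1 binds, and the stretches that hold them are shown to set members with such a sequence near their start beside members with no match there. The motifs GAANNTTC and TTCNNGAA, each its own reverse complement, were searched in the 250 bases before each RefSeq start (GRCh38.p14). They occurred in 11.6% of all 35116 windows, and in 6 of the 13 windows of the 9 members that had one, each of a different gene. HSF1 had no window, and HSPH1, BAG3 and HSPE1 had no match in theirs. The HSPE1 window was chr2:197500129-197500378, and the HSPD1 stretch below lies just upstream of it. The contrast between these neighboring genes therefore rests on the limit of 250 bases. In the stretches below, written 5′ to 3′ on the strand of the gene, the capitals mark the motif.
HSP90AA1, chr14:102087104-102087133, minus strand: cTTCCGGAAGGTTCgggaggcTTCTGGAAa
HSPA8, chr11:123062171-123062200, minus strand: gcgggccccTTCTGGAAGGTTCtaagatag
HSPA8, chr11:123062346-123062375, minus strand: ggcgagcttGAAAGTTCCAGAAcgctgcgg
DNAJB1, chr19:14518456-14518485, minus strand: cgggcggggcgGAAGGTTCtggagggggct
DNAJB1, chr19:14518426-14518455, minus strand: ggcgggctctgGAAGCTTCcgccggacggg
HSPA1B, chr6:31827622-31827651, plus strand: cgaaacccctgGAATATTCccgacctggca
HSPD1, chr2:197500061-197500090, minus strand: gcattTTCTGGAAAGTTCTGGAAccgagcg

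HSP90AA1, DNAJB1 and HSPD1 have further RefSeq starts whose windows held no match. In the HSP90AA1 and HSPD1 stretches 3 matches each stood within 30 bases, partly overlapping. The stretch of HSPA1A holds the same motif as that of HSPA1B. A match says only that these letters are present.

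The 10 genes did not move as 1 group. In both shIRE1 clones HSP90AA1 and HSPD1 fell at all 3 times while BAG3 rose, and HSF1 rose in 5 of the 6 comparisons. HSPH1, HSPA8 and HSPA1B moved in opposite directions in the 2 shIRE1 clones. In the shXBP1 clones HSP90AA1 and HSPD1 had smaller changes than in either shIRE1 clone. HSPA1A (ENSG00000204389), at 0.352 CPM or less in every library, did not pass the filter on low counts, so 9 of the 10 members were tested in each comparison. A change in bulk RNA can reflect fewer cells that use a gene or less of its RNA per cell, and these cannot be told apart.

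**Figure D1:**
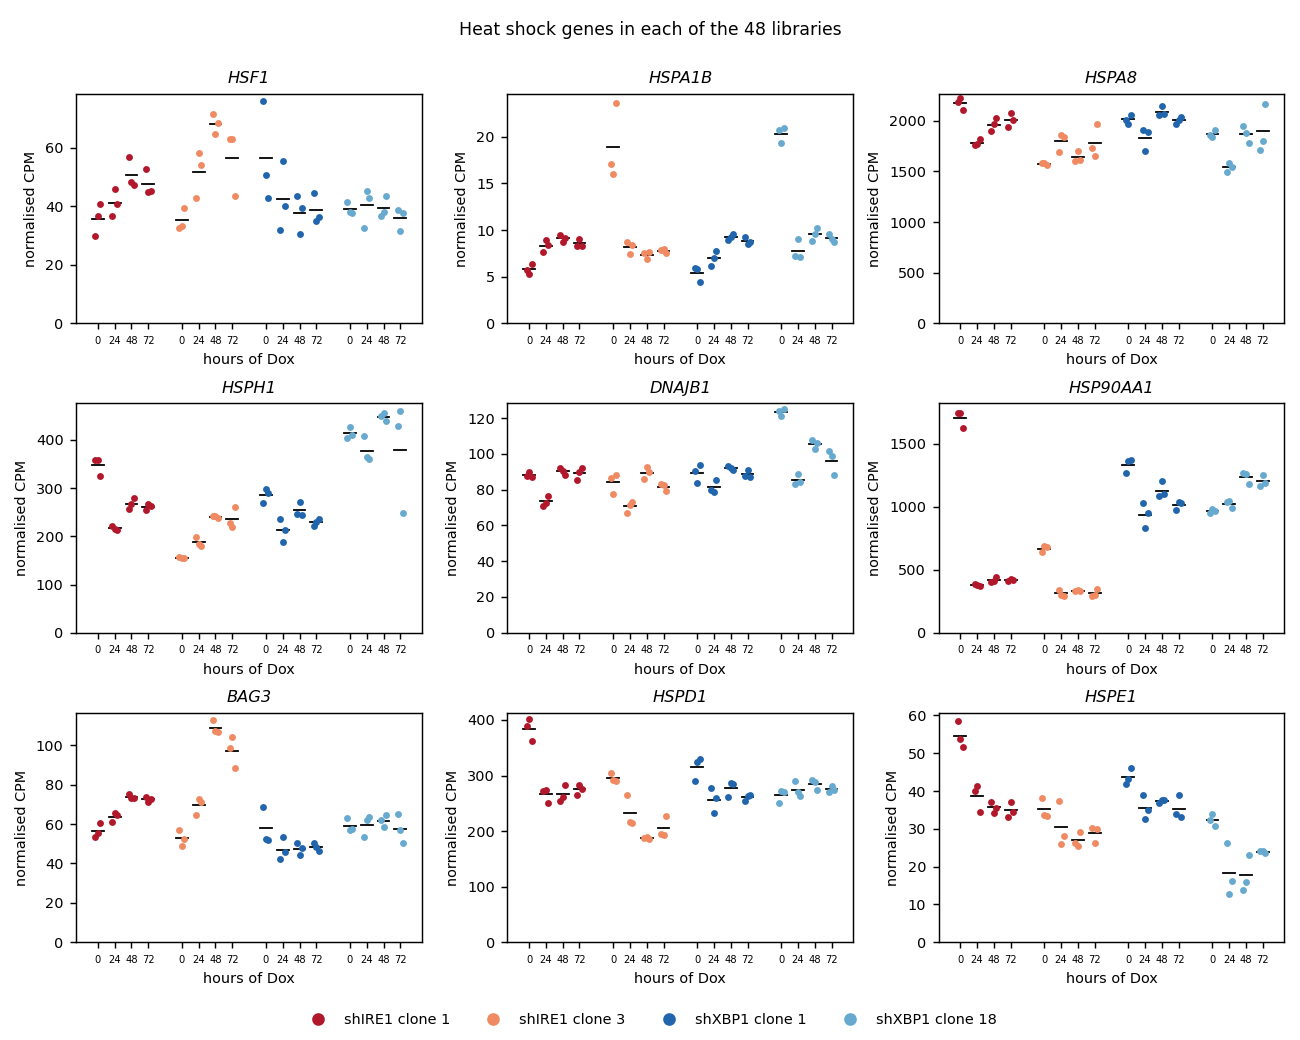
Normalized CPM (linear axis from 0) of 9 heat shock genes in the 48 libraries, by clone (color) and hours of Dox, with 1 point a library and a bar at the mean of 3 libraries. HSP90AA1 drops from 1626 CPM or more to 445 CPM or less in shIRE1 clone 1, and HSPA1B starts at 16.03 CPM or more in shIRE1 clone 3 and shXBP1 clone 18.

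In shIRE1 clone 1, 8 of 9 members differed from 0 h at 24 h, 2 of them higher and 6 lower, where 61.4% of all genes tested did. At both 48 and 72 h 8 were called, 3 higher and 5 lower, against 65.4% and 63.6% of all genes. In shIRE1 clone 3 the counts were 8 of 9 at 24 h with 4 higher, beside 46.2% of all genes. They were 7 at 48 h with 3 higher, beside 63.2%, and 8 at 72 h with 4 higher, beside 60.2%. With so many genes called, a call by itself says little about these members, and their direction and size are described gene by gene.

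In shXBP1 clone 1, 7 of 9 members were called at 24 h, 4 at 48 h and 5 at 72 h, with HSPA1B the only one that was higher, beside 26.7%, 32.0% and 33.6% of all genes. The calls at 24 h leaned on the setting, since 2 remained when only the 6 libraries compared were fitted. The share of all genes called in that fit is not given here, so whether the drop is particular to the members cannot be told. In shXBP1 clone 18, 2 members were called at 24 h, both lower, beside 1.59% of all genes. At 48 h 4 and at 72 h 3 were called, of which HSP90AA1 was higher, beside 5.78% and 9.96%. Without the library labelled 72 h replicate 3, the counts in this clone were 4, 4 and 3. The shares of all genes called in that fit are not given here, so the counts cannot be read as particular to the members.

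**Figure D2:**
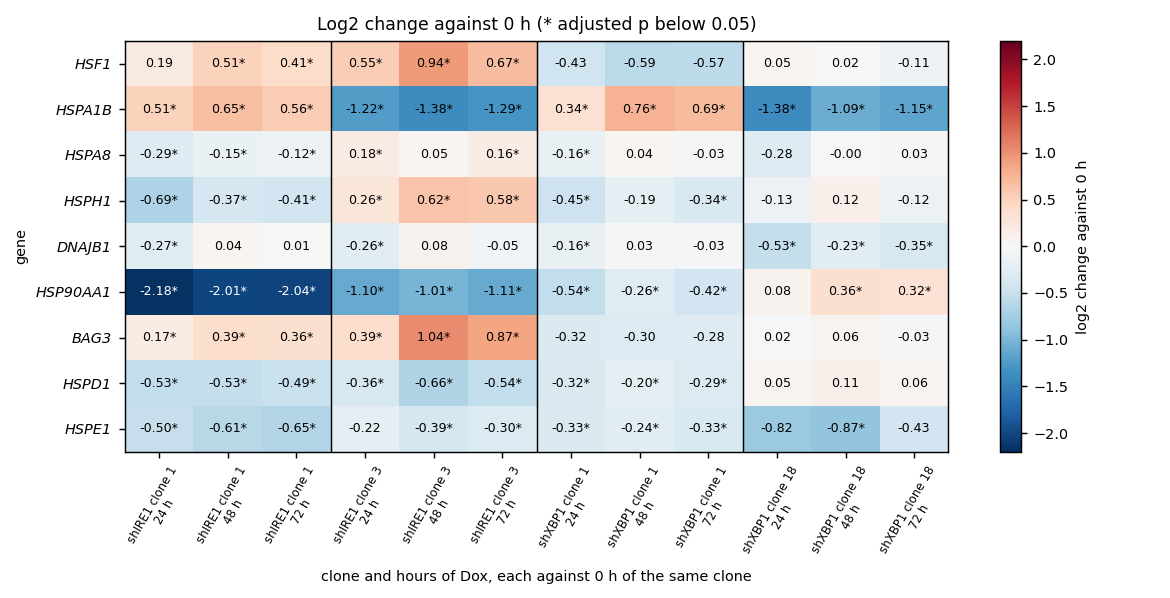
Log2 change of 9 heat shock genes against 0 h of the same clone (color scale from -2.2 to 2.2), by clone and hours of Dox, with an asterisk where the adjusted p was below 0.05. The row of HSP90AA1 is at -1.01 or below in the 6 shIRE1 columns, and the row of HSPA1B changes sign between clones.

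HSF1 (ENSG00000185122) was at 30.0, 36.6 and 40.6 CPM in shIRE1 clone 1 at 0 h, and at 56.8, 48.2 and 47.2 CPM at 48 h. Its levels in shIRE1 clone 3 went from 32.7, 33.3 and 39.4 CPM to 71.4, 64.7 and 68.3 CPM at 48 h. In both clones each 48 h library stood above each 0 h library. The rise was 0.51 (SE 0.10) on the log2 scale in clone 1 and 0.94 (SE 0.14) in clone 3 at 48 h, with edgeR adjusted p of 0.00031 and 2.94e-05. It was 0.41 and 0.67 at 72 h, and at 24 h it was called in clone 3 (0.55) but not in clone 1 (0.19, adjusted p = 0.118).

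HSF1 in shXBP1 clone 18 kept between 31.7 and 45.3 CPM in all libraries, with changes of 0.05, 0.02 and -0.11, none of them called. Its 0 h libraries in shXBP1 clone 1 were spread, at 76.0, 50.7 and 42.8 CPM, and the 48 h libraries were at 43.5, 30.4 and 39.3 CPM, so that the groups overlapped. The changes of -0.43, -0.59 and -0.57 did not pass the threshold (adjusted p between 0.0692 and 0.188). Without replicate 1 of the 0 h group they were -0.15, -0.32 and -0.29, and 0 h replicate 1 was also the highest for BAG3 (68.8 CPM). Without replicate 3 of that group they were larger and called at 48 h (-0.77, adjusted p = 0.0352) and 72 h (-0.74, adjusted p = 0.0399). DESeq2 and the fit of all 48 libraries called HSF1 at 48 and 72 h too, so whether it passes the threshold here depends on the setting.

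Other heat shock factors and regulators moved in different directions. HSBP1, a small protein that binds HSF1 trimers and dampens their activity, fell in shIRE1 clone 1 from 43.1 ± 1.48 CPM (SD, n = 3) to 12.2 ± 0.644 CPM at 72 h, and in clone 3 from 32.7 ± 3.70 to 13.0 ± 0.795 CPM. Its log2 changes at 72 h were -1.82 and -1.34, compared with -0.08 and -0.09 in the shXBP1 clones, which were not called. HSF4, a factor best known from the eye lens, rose by 1.08 and 0.83 in the shIRE1 clones at 72 h, at a level of 17.5 and 22.8 CPM. HSF2 was lower in shIRE1 clone 3 at 48 h (-0.24) and 72 h (-0.23), and its values in clone 1 (-0.05 to -0.13) were not called. Of the 5 genes in this list, 3 were expressed enough to be tested.

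HSPA1B (ENSG00000204388) encodes the stress-inducible cytosolic HSP70, which refolds denatured protein. Its 0 h libraries were at 5.70, 5.30 and 6.41 CPM in shIRE1 clone 1 and at 5.89, 5.77 and 4.48 CPM in shXBP1 clone 1. They were at 17.1, 16.03 and 23.6 CPM in shIRE1 clone 3 and at 20.7, 19.3 and 20.9 CPM in shXBP1 clone 18. The clones 1 thus started low, and clones 3 and 18 high, without overlap, whichever shRNA they carried. After 48 h the 4 clones held 8.68 to 9.50, 8.90 to 9.54, 6.85 to 7.62 and 8.87 to 10.2 CPM in the same order.

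HSPA1B therefore rose in shIRE1 clone 1 (by 0.51, 0.65 and 0.56 at 24, 48 and 72 h) and in shXBP1 clone 1 (by 0.34, 0.76 and 0.69), and fell in shIRE1 clone 3 (-1.22, -1.38 and -1.29) and in shXBP1 clone 18 (-1.38, -1.09 and -1.15). The rise of shXBP1 clone 1 at 24 h was at the edge of the threshold (adjusted p = 0.0498) and was not called with DESeq2, limma or RLE factors, whereas the other 11 changes were called with edgeR at adjusted p of 0.00116 or less. Because most of its sequence is shared with HSPA1A, the level of HSPA1B is uncertain by whatever reads were set aside or assigned between the copies.

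HSPA8 (ENSG00000109971) encodes HSC70, the constitutive cytosolic HSP70 that folds new proteins and uncoats clathrin vesicles. Its libraries were at 2186, 2228 and 2108 CPM in shIRE1 clone 1 at 0 h and at 1759, 1776 and 1821 CPM at 24 h. The libraries of shIRE1 clone 3 were at 1588, 1583 and 1563 CPM at 0 h and at 1696, 1857 and 1839 CPM at 24 h. These groups did not overlap, and the gene fell in clone 1 (-0.29, SE 0.03) and rose in clone 3 (0.18, SE 0.06). The changes stayed small at 48 and 72 h, at -0.15 and -0.12 in clone 1, both called, though the latter was not with all 48 libraries (adjusted p = 0.0946), and at 0.05 (not called) and 0.16 in clone 3.

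The rise of HSPA8 in clone 3 at 24 and 72 h lost its call when single libraries were left out, 0 h replicate 3 among them at either time. HSPA8 fell in shXBP1 clone 1 at 24 h (-0.16), a call lost when only the 6 libraries were fitted. Its 24 h level in shXBP1 clone 18 was 1494 to 1587 CPM compared with 1843 to 1908 CPM at 0 h, a change of -0.28 with an adjusted p of 0.103. Without the library labelled 72 h replicate 3, which shares the fit, the same change had an adjusted p of 0.00264.

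HSPH1 (ENSG00000120694) encodes HSP105, an HSP110 that exchanges the nucleotide of HSP70. It was at 358, 359 and 326 CPM at 0 h and at 221, 216 and 213 CPM at 24 h in shIRE1 clone 1. In shIRE1 clone 3 it was at 157, 154 and 156 CPM at 0 h and at 242, 242 and 239 CPM at 48 h. The clones started far apart and moved toward each other, to between 254 and 267 CPM and between 219 and 260 CPM at 72 h. HSPH1 fell in clone 1 by 0.69, 0.37 and 0.41 on the log2 scale at 24, 48 and 72 h (SE 0.04) and rose in clone 3 by 0.26, 0.62 and 0.58 (SE 0.06).

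HSPH1 in shXBP1 clone 1 went from 270, 298 and 290 CPM at 0 h to 236, 189 and 214 CPM at 24 h, a fall of 0.45, and fell by 0.34 at 72 h. The value at 48 h, -0.19, was not called (adjusted p = 0.0622). HSPH1 in shXBP1 clone 18 was higher than in the other clones, at 405, 426 and 409.5 CPM at 0 h and 428, 460 and 248 CPM at 72 h. The last of these is the library that resembled clone 1. With it the changes at 24, 48 and 72 h were -0.13, 0.12 and -0.12 (SE 0.16), and without it -0.13, 0.12 and 0.11, none of them called.

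DNAJB1 (ENSG00000132002) encodes HSP40, which delivers clients to HSP70 and is among the genes most readily induced by HSF1. In shIRE1 clone 1 it was at 87.7, 89.7 and 87.2 CPM at 0 h and at 71.0, 72.7 and 76.5 CPM at 24 h, and in shIRE1 clone 3 at 86.4, 77.4 and 88.2 CPM and at 67.2, 71.5 and 73.2 CPM. The 24 h libraries lay below the 0 h libraries in both clones. It fell at 24 h by 0.27 and 0.26, and at 48 and 72 h its changes were between -0.05 and 0.08 and were not called. DNAJB1 in shXBP1 clone 18 started higher, at 124, 121 and 125 CPM, and fell at 24 h to 83.2, 88.7 and 84.3 CPM. The 3 changes in this clone were -0.53, -0.23 and -0.35 in order of time, and the one at 48 h (adjusted p = 0.0397) was not called with limma, without the filter on low counts, or on leaving out any 1 of the 6 libraries compared. Its fall of 0.16 in shXBP1 clone 1 at 24 h (adjusted p = 0.0478) was not called with DESeq2 or limma.

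HSP90AA1 (ENSG00000080824), which encodes the inducible cytosolic HSP90, showed the largest changes among the members in shIRE1 clone 1, whereas HSPA1B changed more in shIRE1 clone 3 and shXBP1 clone 18. In shIRE1 clone 1 the 0 h libraries were at 1742, 1745 and 1626 CPM, the 24 h libraries at 384, 375 and 371 CPM, and the 72 h libraries at 408, 422 and 417 CPM. In shIRE1 clone 3 they went from 638, 687 and 678 CPM to 340, 303 and 294 CPM at 24 h and 292, 296 and 346 CPM at 72 h. No library after Dox came near a 0 h library in either clone. The log2 changes were -2.18, -2.01 and -2.04 in clone 1 (SE 0.04) and -1.10, -1.01 and -1.11 in clone 3 (SE 0.07), with adjusted p of 4.5e-18 and 3.96e-09 at 24 h.

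HSP90AA1 in shXBP1 clone 1 was at 1269, 1363 and 1367 CPM at 0 h and at 1030, 830 and 947 CPM at 24 h. It fell by 0.54, 0.26 and 0.42 on the log2 scale at the 3 times. In shXBP1 clone 18 it was at 949, 983 and 963 CPM at 0 h and at 1268, 1261 and 1181 CPM at 48 h, without overlap, and rose by 0.36 at 48 h and 0.32 at 72 h, whereas 0.08 at 24 h was not called. The direction of HSP90AA1 thus differed between the shXBP1 clones, and the size between the shIRE1 clones.

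HSP90AB1, the constitutive cytosolic HSP90 whose protein is closely related to that of HSP90AA1, did not share this pattern. In shIRE1 clone 1 it fell by 0.50, 0.24 and 0.21 on the log2 scale at the 3 times, and in shIRE1 clone 3 it rose by 0.28, 0.44 and 0.50. Per kilobase, the ratio of HSP90AA1 to HSP90AB1 was 0.596 ± 0.0132 (SD, n = 3) in shIRE1 clone 1 at 0 h and 0.174 ± 0.0031 at 48 h. The ratio in shIRE1 clone 3 was 0.403 ± 0.0214 and 0.147 ± 0.0015. In the shXBP1 clones every library kept a ratio between 0.395 and 0.616, above the 0.197 that was the highest of any shIRE1 library after Dox.

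**Figure D3:**
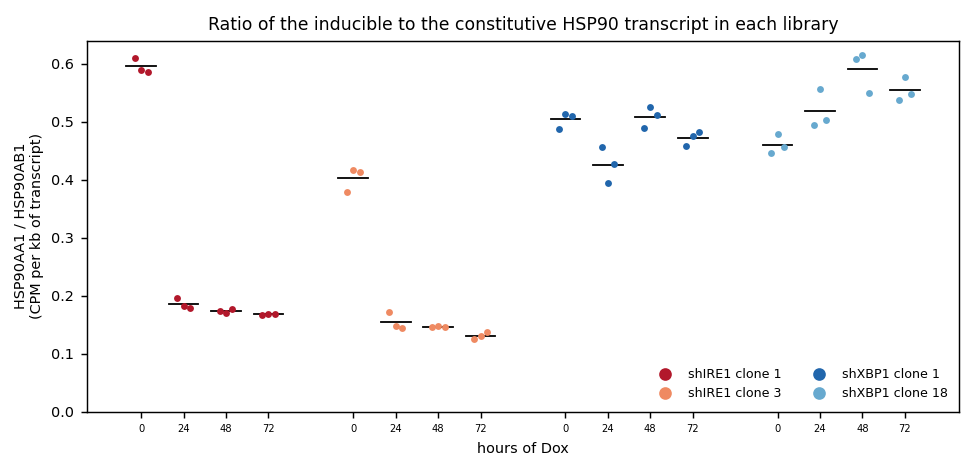
Ratio of HSP90AA1 to HSP90AB1 in CPM per kilobase of transcript (linear axis from 0) in 48 libraries, by clone and hours of Dox, with 1 point a library and a bar at the mean of 3. The 18 shIRE1 libraries with Dox lie at or under 0.197 and all other libraries at or above 0.378.

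BAG3 (ENSG00000151929) encodes a co-chaperone that releases clients from HSP70 and directs them to autophagy. In shIRE1 clone 1 it was at 53.6, 55.6 and 60.3 CPM at 0 h and at 75.1, 73.4 and 73.1 CPM at 48 h. Its levels went in shIRE1 clone 3 from 56.9, 48.7 and 52.6 CPM to 113, 107 and 107 CPM. Both moved above their 0 h range, clone 3 further than clone 1. The rises at 24, 48 and 72 h were 0.17, 0.39 and 0.36 in clone 1 (SE 0.05) and 0.39, 1.04 and 0.87 in clone 3 (SE 0.08), and the one at 24 h in clone 1 was not called when all 48 libraries were fitted (adjusted p = 0.105).

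BAG3 in shXBP1 clone 1 was at 68.8, 52.6 and 52.0 CPM at 0 h and at 50.3, 44.2 and 48.1 CPM at 48 h, and its changes of -0.32, -0.30 and -0.28 did not pass the threshold (adjusted p between 0.0566 and 0.0792). Fitted with all 48 libraries, all 3 were called, and without 0 h replicate 1 they shrank to -0.16, -0.15 and -0.13, none of them called. Without 0 h replicate 3 the values at 24 h (-0.39) and 48 h (-0.37) were called, as was that at 24 h with DESeq2 and without 24 h replicate 2 (-0.42). The values of BAG3 in shXBP1 clone 18 were 0.02, 0.06 and -0.03, none of them called.

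HSPD1 (ENSG00000144381) encodes HSP60, the chaperonin of the mitochondrial matrix, and HSPE1 its lid HSP10; the genes lie head to head. HSPD1 was at 389, 402 and 362 CPM in shIRE1 clone 1 at 0 h and at 255, 261 and 282 CPM at 48 h. In shIRE1 clone 3 it went from 305, 291 and 291 CPM to 188, 189 and 187 CPM. The 48 h libraries lay below the 0 h libraries in both clones. The falls at 24, 48 and 72 h were 0.53, 0.53 and 0.49 (SE 0.05) in clone 1 and 0.36, 0.66 and 0.54 (SE 0.07) in clone 3. HSPD1 in shXBP1 clone 1 fell by 0.32, 0.20 and 0.29, of which the one at 48 h (adjusted p = 0.0426) was not called with limma or on leaving out any of 5 of the 6 libraries. Its changes in shXBP1 clone 18 of 0.05, 0.11 and 0.06 were not called.

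HSPE1 (ENSG00000115541) was at 58.4, 53.9 and 51.7 CPM in shIRE1 clone 1 at 0 h and at 37.2, 34.2 and 35.6 CPM at 48 h, and fell by 0.50, 0.61 and 0.65 at the 3 times. It fell in shIRE1 clone 3 by 0.39 at 48 h and 0.30 at 72 h, and its value of -0.22 at 24 h was not called. Without the 24 h replicate 1 that lay between the clones it was -0.38 and called (adjusted p = 0.0027). The fall at 72 h was lost on leaving out 0 h replicate 1 or 72 h replicate 2. HSPE1 fell by 0.33, 0.24 and 0.33 in shXBP1 clone 1, where the call at 48 h was lost on leaving out any of 5 of the 6 libraries. With all 48 libraries it was called at none of the 3 times (adjusted p of 0.115, 0.237 and 0.0937), and with only the 6 libraries not at 24 h (adjusted p = 0.0653).

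HSPE1 in shXBP1 clone 18 went from 32.4, 34.0 and 30.8 CPM at 0 h to 26.2, 12.7 and 16.3 CPM at 24 h and 13.9, 15.9 and 23.1 CPM at 48 h, while HSPD1 in the same libraries stayed between 250 and 291 CPM. The pair did not move together here. The change of HSPE1 was -0.82 at 24 h, -0.87 at 48 h and -0.43 at 72 h, with edgeR adjusted p of 0.0838, 0.0332 and 0.215. Without the library labelled 72 h replicate 3, the adjusted p was 0.0361 at 24 h and 0.0136 at 48 h. The call at 48 h was lost on leaving out any 0 h library or 48 h replicate 1 or 2 (adjusted p between 0.0922 and 0.155). HSPE1 is the shortest member, shares much of its sequence with pseudogenes and was read at few CPM, so its level is less certain than that of HSPD1.

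Between 24 and 72 h of Dox the members moved little. Of the 9 members 5 were called in shIRE1 clone 1, all higher, beside 29.1% of all genes. DNAJB1 (0.28), HSPH1 (0.27), BAG3 (0.19), HSPA8 (0.17) and HSP90AA1 (0.14) rose, and 2 of the 5 were called when all 48 libraries were fitted. Of the 9 members 3 were called in shIRE1 clone 3, all higher, beside 33.5% of all genes, namely BAG3 (0.48), HSPH1 (0.32) and DNAJB1 (0.20). DNAJB1 lost its call without the doubted 24 h replicate 1 (0.17, adjusted p = 0.058). In shXBP1 clones 1 and 18 none of the 9 was called by edgeR, beside 0.205% and 0.125% of all genes, although 3 in each had an unadjusted p under 0.05 (HSPA1B, HSPA8 and DNAJB1 in clone 1, and HSP90AA1, HSPA8 and DNAJB1 in clone 18). DESeq2 called none in clone 1, and HSP90AA1 (0.24) and HSPA8 (0.30) in clone 18. Without the library that resembled clone 1, edgeR gave 0.24 (adjusted p = 0.0655) and 0.19 (adjusted p = 0.17) for these, and for HSPH1 0.24 in place of 0.01, none of them called.

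The responses of the 2 shIRE1 clones were averaged and set against those of the 2 shXBP1 clones. At 24 h 5 of 9 members differed beside 38.7% of all genes, at 48 h 5 beside 56.9%, and at 72 h 6 beside 55.3%, and 2 of them, HSP90AA1 and HSPD1, were lower in shIRE1 at each time. HSP90AA1 differed most, by -1.42, -1.57 and -1.53 at the 3 times, with a 95% interval of -1.69 to -1.45 at 48 h. This interval reflects the spread between flasks of the same clone and leaves out that between clones. At 48 h HSP90AA1 had -2.01 and -1.01 in shIRE1 clones 1 and 3. It had -0.26 and 0.36 in shXBP1 clones 1 and 18. HSPD1 differed by -0.32, -0.56 and -0.40. On the other side stood HSF1 (0.56, 1.01 and 0.88) and BAG3 (0.43, 0.82 and 0.77).

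HSP90AA1 and BAG3 kept their direction and their call at all 3 times in both the pair of clones 1 and the pair of clones 3 and 18. The choice of pairs was arbitrary, and the other pairings of an shIRE1 with an shXBP1 clone were not fitted. HSF1 at 24 h was called in neither pair alone and was 0.26 (adjusted p = 0.218) without replicate 1 of every group, and HSPD1 at 24 and 72 h was not called between the clones 1 (-0.23 and -0.21). The smaller differences did not hold across pairs. HSPA8 at 24 h (0.16), DNAJB1 at 48 h (0.15) and 72 h (0.17), and HSPH1 at 72 h (0.32) were called over both pairs, and between the clones 1 alone they were -0.15, -0.01, 0.03 and -0.09, none of them called. Leaving out the 72 h library that resembled another clone gave a difference of HSPH1 of 0.19 at 72 h, still called, and of 0.15 at 48 h, now called. HSPE1 and HSPA1B did not differ beyond their errors, with 95% intervals at 48 h of -0.24 to 0.34 and of -0.42 to 0.02. For HSPA1B each mean averaged opposite changes. At 48 h these were 0.65 and -1.38 in shIRE1 clones 1 and 3, and 0.76 and -1.09 in shXBP1 clones 1 and 18.

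**Figure D4:**
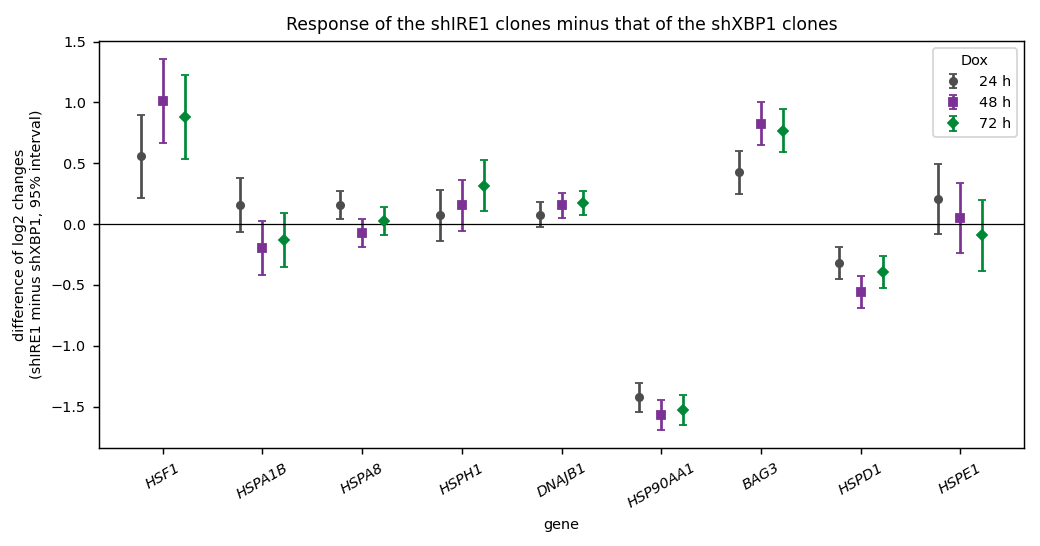
Difference of the log2 change against 0 h between the shIRE1 and the shXBP1 clones (mean of 2 clones each) for 9 heat shock genes at 24, 48 and 72 h, with 95% intervals. The intervals reflect the spread between flasks and leave out that between clones. HSP90AA1 lies between -1.57 and -1.42 and HSF1 and BAG3 between 0.43 and 1.01.

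Clones with the same shRNA also differed from each other. At 0 h 6 of 9 members differed between shIRE1 clones 1 and 3, beside 40.6% of all genes. HSP90AA1 (1.35), HSPH1 (1.16), HSPE1 (0.64), HSPA8 (0.46) and HSPD1 (0.38) were higher in clone 1, and HSPA1B (-1.71) was higher in clone 3. Between shXBP1 clones 1 and 18, 7 of 9 differed at 0 h, beside 51.3% of all genes. HSF1 (0.54), HSP90AA1 (0.47), HSPE1 (0.43) and HSPD1 (0.25) were higher in clone 1, and HSPA1B (-1.91), HSPH1 (-0.53) and DNAJB1 (-0.47) were higher in clone 18. HSF1 lost its call without replicate 1 of every group (0.35, adjusted p = 0.0717), and HSPE1 without replicate 3 (0.37, adjusted p = 0.129).

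The response at 48 h differed between shIRE1 clones 1 and 3 for 4 of 9 members, beside 30.8% of all genes: HSPA1B (2.02), HSP90AA1 (-1.01), HSPH1 (-1) and BAG3 (-0.66). For HSPA1B, HSP90AA1 and HSPH1 the clone that was higher at 0 h was the one with the lower log2 change, and the 0 h libraries enter both values. Between shXBP1 clones 1 and 18 the response at 48 h differed for 6 of 9, beside 24.1% of all genes. HSPA1B (1.86), HSPE1 (0.64) and DNAJB1 (0.27) had the higher value in clone 1, and HSP90AA1 (-0.60), BAG3 (-0.35) and HSPD1 (-0.29) in clone 18. Without replicate 2 of every group 2 of these 6, HSPA1B and HSP90AA1, were called. Without the library that resembled clone 1, HSPH1 (-0.32) was called too, as was HSPA8 in the shIRE1 comparison (-0.21) and between the shXBP1 clones at 0 h (0.14).

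Among 31 other cytosolic HSP70, HSP40, HSP90 and small heat shock genes, 27 were tested. At 48 h 6 were higher and 18 lower in shIRE1 clone 1, and 10 higher and 9 lower in shIRE1 clone 3, or 88.9% and 70.4% called beside 65.4% and 63.2% of all genes, with median log2 changes of -0.32 and -0.06 beside 0.03 and 0.02 over all genes. In shXBP1 clone 1 there were 1 higher and 10 lower, and in clone 18 there was 1 higher. That was 40.7% and 3.7% called beside 32.0% and 5.78% of all genes. PTGES3, the HSP90 co-chaperone p23, fell by 1.14 and 0.77 in shIRE1 clones 1 and 3 at 72 h, and BAG5, a nucleotide exchange factor of HSP70, by 1.03 and 0.91. HSPA4L, an HSP110, rose by 0.46 and 1.31. DNAJA1, another HSP40, fell in shIRE1 clone 1 at 48 h (-0.35) and rose in clone 3 (0.43), as HSPH1 did, and HSPA4 had -0.16 (called) and 0.12 (not called). HSPB1, or HSP27, was lower in shIRE1 clone 3 at 48 h (-0.65) and had -0.07 in clone 1, which was not called.

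All 14 subunits of the TRiC chaperonin and prefoldin were tested, and 12 were lower in each shIRE1 clone at 48 h, with 1 higher in clone 1, or 92.9% and 85.7% called beside 65.4% and 63.2% of all genes. Their medians were -0.45 and -0.36 in clones 1 and 3, and -0.12 and 0.12 in shXBP1 clones 1 and 18. CCT3 (-1.42 and -1.08) and VBP1 (-1.31 and -1.21) fell furthest at 72 h in the shIRE1 clones, followed by CCT4 (-0.63 and -0.42).

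Of 17 other mitochondrial chaperones and proteases, 8 were lower in either shIRE1 clone at 48 h and 2 and 3 were higher, or 58.8% and 64.7% called, near the 65.4% and 63.2% of all genes. HSPA9, the mitochondrial HSP70, fell by 0.17 and 0.46 at 48 h in shIRE1 clones 1 and 3. GRPEL2, its nucleotide exchange factor, fell too (-1.19 and -1.95), as did the matrix protease LONP1 (-0.52 and -1.06), while SPG7, a protease of the inner membrane, rose by 1.08 and 1.05.

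The 20 ER chaperones, against which the heat shock genes are set, moved more uniformly in direction in the shIRE1 clones, though their size varied. Their changes at 48 h ranged from -1.83 to 0.40 in shIRE1 clone 1 and from -2.40 to 0.22 in shIRE1 clone 3. At 48 h 18 fell and 2 rose in shIRE1 clone 1, and 18 fell and 1 rose in shIRE1 clone 3. Thus 20 and 19 of the 20 were called, or 100% and 95% beside 65.4% and 63.2% of all genes. Their medians were -1.20 and -1.10, whereas the 9 heat shock genes had medians of -0.15 and 0.05. In shXBP1 clones 1 and 18, 10 of the 20 fell in each and 2 and 1 rose, with medians of -0.19 and -0.38. That was 60% and 55% called beside 32.0% and 5.78% of all genes. HSPA5, the ER HSP70 BiP, fell by 1.83 and 0.76 in shIRE1 clones 1 and 3 at 48 h, where the cytosolic HSPA8 had -0.15 and 0.05. HSP90B1, the ER HSP90, fell by 0.92 and 0.63 and rose by 0.58 in shXBP1 clone 1, which is opposite in direction to HSP90AA1 in that clone (-0.26).

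HYOU1, the ER HSP110, fell by 1.64 and 1.13 in shIRE1 clones 1 and 3 at 48 h, while its cytosolic relative HSPH1 fell in the first and rose in the second. DNAJB9, an ER HSP40 and a classical target of XBP1s, fell in all 4 clones at 48 h, by 1.36 and 2.40 in the shIRE1 clones and by 0.78 and 1.61 in the shXBP1 clones, where DNAJB1 had 0.04, 0.08, 0.03 and -0.23. HERPUD1, a component of ER-associated degradation, fell by 1.12 and 2.19 and PDIA3, a disulfide isomerase, by 1.83 and 1.32 in the shIRE1 clones at 72 h. The ER stress element, CCAAT and CCACG set 9 bases apart on either strand, occurred in the windows of 6 of 19 ER chaperone genes and in 0.07% of all windows, and in none of the members.

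**Figure D5:**
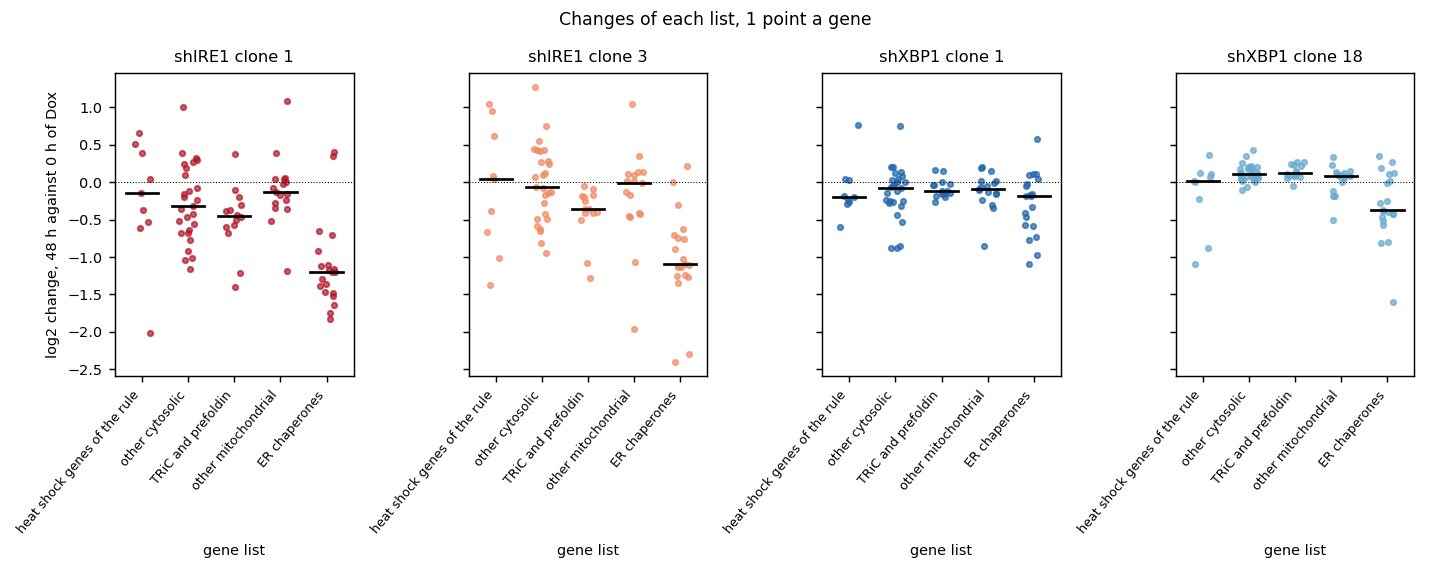
Log2 change at 48 h against 0 h in each clone for the genes of 5 lists, with 1 point a gene and a bar at the median of the list. In the shIRE1 clones the ER chaperones have medians of -1.20 and -1.10 and scatter from -1.83 to 0.40 and from -2.40 to 0.22. The heat shock genes have medians of -0.15 and 0.05 and scatter from -2.01 to 0.65 and from -1.38 to 1.04.

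The genes whose mean log2 CPM over the 16 groups was most like that of a member were found among 12008 genes, as a description. For HSP90AA1 they were SKA3, HSP90AA2P and RANBP1 (Pearson r from 0.987 to 0.991), of which HSP90AA2P is a pseudogene that shares 13.7% of the 50-base words of the HSP90AA1 transcript. For HSF1 they were HDAC10, FCHO1 and AHDC1 (0.973 to 0.992), and for HSPD1 they were PTMA, ZC3H15 and GAR1 (0.973 to 0.981). For HSPA8 they were FOXJ3, SMN1 and UMPS (0.818 to 0.857). No other member was among them. Between members the highest r was 0.812, for HSF1 and BAG3, and the lowest -0.741, for HSP90AA1 and BAG3. The groups of a clone share its background, so these values are not independent.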

How the data were processed

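RNA was sequenced from 48 AMO1 libraries (stranded mRNA kit, single-end reads of 50 bases). The authors deposited a count per gene for 58302 genes, and log2 CPM values with TMM scaling for 18401 genes. The submitters' processing notes name GSNAP, edgeR 3.32.1, limma 3.46.0 and R 4.1.3, and the builds GRCh37 and hg19. For these libraries, how reads were counted and whether strand was used is not given in the sources used here (for another RNA-seq experiment the study counted reads that map to the exons of 1 gene only), so reads of antisense or overlapping genes, such as DGAT1 at the end of HSF1, may be included. Recomputed from the counts in edgeR (prior count 2), the deposited log2 values came out the same within 5e-14.

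Counts were scaled by TMM, filtered by filterByExpr (minimum count 10, minimum total count 15) and tested in R 4.3.3 by the two-sided quasi-likelihood test of edgeR 4.0.16. Each clone was fitted on its own 12 libraries, and differences between shRNAs and clones were fitted over all 48 libraries (18445 genes). Adjusted p are Benjamini-Hochberg values over every gene in the fit, called below 0.05, and intervals are normal 95% intervals of the fitted value. Replicate pairs differed by more than sampling noise (mean chi-square per gene from 1.62 to 55.8). Replicate numbers come from the titles; same-numbered libraries deviated together (every r over 0.1) in shXBP1 clone 1 between 0 and 72 h (lowest r 0.365).

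The members and lists were chosen with earlier results of these data known. Besides the members, HSPA5, HSP90B1, HYOU1, DNAJB9, HSP90AB1, HSPA4, DNAJA1, HSPB1, HSPA9 and HSF2 were named, with up to 3 genes of each list that had the largest mean change in the shIRE1 clones at 72 h, and 3 genes most like each of 5 members (those of HSPH1 are not reported here). Those chosen by their change are a description. Alternatives were RLE factors, no filter, DESeq2 1.42.0, limma 3.58.1 on the deposited log2 values, other sets of libraries, a replicate block, HSPA1A and HSPA1B summed, and leaving out libraries. Transcript lengths, overlaps and shared words come from GENCODE 44, and sequences from RefSeq (GRCh38.p14).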

Additional observations from a re-analysis of the deposited data

Results flagged for a closer look

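The response of the shIRE1 clones differed from that of the shXBP1 clones, by a test of the difference itself (edgeR, adjusted over all genes), for HSP90AA1 at 24, 48 and 72 h (-1.42, -1.57 and -1.53 on the log2 scale), HSF1 (0.56, 1.01 and 0.88), BAG3 (0.43, 0.82 and 0.77) and HSPD1 (-0.32, -0.56 and -0.4). It also differed for HSPA8 at 24 h (0.16), DNAJB1 at 48 and 72 h (0.15 and 0.17) and HSPH1 at 72 h (0.32). These were not called between the clones 1 alone, nor were HSF1 at 24 h and HSPD1 at 24 and 72 h. Without the 72 h library that resembled another clone, HSPH1 differed by 0.19 at 72 h.

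The response at 48 h differed between clones with the same shRNA. For shIRE1 clone 1 minus clone 3 the differences were 2.02 for HSPA1B, -1.01 for HSP90AA1, -1 for HSPH1 and -0.66 for BAG3. For shXBP1 clone 1 minus clone 18 they were 1.86 for HSPA1B, 0.64 for HSPE1, 0.27 for DNAJB1, -0.6 for HSP90AA1, -0.35 for BAG3 and -0.29 for HSPD1.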

How the results depend on the processing

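Over 2655 alternative values of single members, 2469 kept their direction and their side of the threshold (65 of these changed sign with no call in either fit), 107 were no longer called, 76 became called and 3 changed sign. Those 3 were shIRE1 minus shXBP1 differences between the clones 1 alone: HSPA8 at 24 h (-0.15), DNAJB1 at 48 h (-0.0092) and HSPH1 at 72 h (-0.093). In that pair 2 members were called at 24 h and 3 at 72 h. With all 48 libraries in 1 fit, 2 members were called between 24 and 72 h in shIRE1 clone 1, 4 in shXBP1 clone 18 at 24 h and 3 in that clone between 24 and 72 h. With only the 6 libraries compared, 2 were called in shXBP1 clone 1 at 24 h and 4 in shXBP1 clone 18 at 24 h. Without the filter, 4 were called in shXBP1 clone 18 at 24 h and 3 between 24 and 72 h, and DESeq2 called 4 and 2. The shares of all genes called in these other fits are not given here. The cause was not tested.

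With the replicate number as a block, 2 members were called in shXBP1 clone 1 at 48 h and 2 in shXBP1 clone 18 at 48 h. In neither case did all same-numbered libraries deviate together with those of 0 h. In shXBP1 clone 1 at 72 h, where all same-numbered libraries did, 5 were called with and without the block. The block was fitted over all 12 libraries of the clone, so this does not test the pairing of 0 and 72 h alone. Between 0 and 24 h the same numbers gave r of -0.805, -0.675 and 0.174, and between 24 and 72 h -0.653, -0.446 and 0.099. Whether the numbers mark paired flasks is therefore not settled.

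Leaving out 1 library of a comparison at a time gave 8 to 9, 8 to 8 and 8 to 8 members called at 24, 48 and 72 h in shIRE1 clone 1, 7 to 9, 7 to 7 and 6 to 8 in shIRE1 clone 3, 5 to 6, 2 to 5 and 5 to 6 in shXBP1 clone 1 and 2 to 4, 2 to 4 and 3 to 3 in shXBP1 clone 18. In shXBP1 clone 18 the ranges at 24 and 48 h also include leaving out the library labelled 72 h replicate 3. Between 24 and 72 h the ranges were 5 to 6, 2 to 4, 0 to 0 and 0 to 2. Other ranges came from leaving out 1 replicate number of every group, or the library that resembled shXBP1 clone 1. They were 4 to 5, 4 to 6 and 4 to 6 for the difference between shRNAs. For the responses of the shIRE1 and shXBP1 clones at 48 h they were 4 to 5 and 2 to 7. For the clones at 0 h they were 6 to 6 and 6 to 8. The shares of all genes called on leaving out libraries are not given here. The 3 flasks of a group came from 1 clone, so p-values measure the spread between flasks. HSPA1A was too low to test at this depth.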

Other observations

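The summed level of the 10 members was 4668 to 4976 CPM in shIRE1 clone 1 at 0 h and 2853 to 3299 CPM after Dox. It was 2919 to 2925 CPM and 2651 to 3048 CPM in shIRE1 clone 3. At 0, 24, 48 and 72 h alike, every library of clone 1 lay above every library of clone 3, and the gap between the ranges was widest at 0 h.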
